A study of Mus musculus with 10 samples.

Results

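The 10 genes described here encode the machinery of MHC class II antigen presentation: the class II chains H2-Aa, H2-Ab1 and H2-Eb1, the invariant chain Cd74, the peptide-loading proteins H2-DMa, H2-DMb1, H2-DMb2 and H2-Oa, the transcriptional coactivator Ciita and the protease Ctss. They were chosen by gene symbol, among 37417 genes in the count table, and all 10 had enough counts to be tested (15299 genes were tested). RNA-seq was performed on whole subcutaneous (s.c.) Panc02 tumors, 5 per group, grown in wild type C57BL/6J mice aged 12 weeks and collected on day 16. Panc02 is a mouse pancreatic cancer cell line, and in both groups the cells carried a doxycycline-inducible Cas9, with blasticidin and puromycin selection. sgNT cells received a nontargeting guide and sgCda cells a guide against Cda, the gene for cytidine deaminase. Only the cancer cells were edited, so host cells in both groups kept an intact Cda gene. The study's methods state that clones of single cells were isolated by limiting dilution, and that a pool of clones served for survival experiments alone. No label says whether the cells used here were a clone.

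MHC class II molecules are dimers of an α and a β chain that show peptides from engulfed proteins to CD4+ T cells. They are made mainly by dendritic cells, macrophages and B cells, and by other cells exposed to IFNγ. Newly made dimers are held by CD74, which is degraded in endosomes, in its last steps by cathepsin S. H2-DM then exchanges the remaining CD74 fragment for peptide, and H2-O restrains H2-DM. CIITA binds no DNA itself. It is recruited by the RFX, CREB and NF-Y factors that sit on the X and Y boxes of class II promoters.

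Promoter stretches are shown for 4 of the genes and for the related chain H2-Eb2, as examples. They hold letters of the X or Y box (H2-Eb1, H2-Eb2 and H2-DMb2 both, H2-Aa the Y box) or, in Ctss, of an interferon response element. H2-DMb1, which holds both boxes, and H2-Oa, which holds the Y box, are not shown. RefSeq promoter windows of the GRCm38.p6 build (250 bases before to 50 after a start site) were at hand for 7 of the 10 genes, and H2-Ab1, Cd74 and Ciita had none. Each stretch below is read 5′ to 3′ on the gene's strand and holds no annotated exon base. That of H2-DMb2 lies inside the annotated gene, which starts upstream at 34143307. Capitals mark the X box core (AACNGATG) and the Y box (TGATTGG), or, in Ctss, an interferon-stimulated response element (ISRE, searched as GAAA, any 2 bases and GAAA). The letters searched were chosen after the sequences had been seen.
H2-Eb1 (chr17:34305717-34305866, plus strand): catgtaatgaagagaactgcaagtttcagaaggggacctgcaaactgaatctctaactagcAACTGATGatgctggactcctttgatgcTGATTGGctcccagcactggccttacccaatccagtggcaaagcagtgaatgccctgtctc
H2-Eb2 (chr17:34325525-34325664, plus strand): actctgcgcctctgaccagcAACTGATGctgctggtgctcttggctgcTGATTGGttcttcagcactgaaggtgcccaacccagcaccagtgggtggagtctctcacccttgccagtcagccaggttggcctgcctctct
H2-DMb2 (chr17:34145099-34145235, plus strand): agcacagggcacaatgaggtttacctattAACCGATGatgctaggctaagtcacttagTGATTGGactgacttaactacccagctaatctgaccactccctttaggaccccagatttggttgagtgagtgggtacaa
H2-Aa (chr17:34287824-34287973, minus strand): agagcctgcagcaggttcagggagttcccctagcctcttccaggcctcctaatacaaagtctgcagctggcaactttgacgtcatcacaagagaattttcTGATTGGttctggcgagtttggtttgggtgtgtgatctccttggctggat
Ctss (chr3:95526636-95526785, plus strand): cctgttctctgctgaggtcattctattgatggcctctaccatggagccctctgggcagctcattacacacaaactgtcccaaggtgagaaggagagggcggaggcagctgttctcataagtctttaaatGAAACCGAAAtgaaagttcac

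With both strands searched, the X box core was found in 2.32% of 32851 promoter windows, the Y box in 7.82% and the ISRE in 3.44%. An X box core upstream of a Y box on the same strand, with a gap of up to 30 bases, was found in 7 windows (0.0213%). Of these 7, 4 belonged to H2-Eb1, H2-Eb2, H2-DMb1 and H2-DMb2. The gap was 20 bases in H2-Eb1 and H2-Eb2 and 21 bases in H2-DMb1 and H2-DMb2. The core read AACTGATG in H2-Eb1, H2-Eb2 and H2-DMb1, and AACCGATG in H2-DMb2. H2-Aa and H2-Oa held the Y box alone, at positions -50 and -45 from the start site. In H2-Aa the letters TGACG, the core read by CREB factors, which 20.8% of windows held, lay further upstream at -74. Ctss held an X box core at -207 with no Y box, and its ISRE lay at -21. No match to these 3 motifs was found in the windows of H2-DMa. These matches are letters in a window, and no binding was measured here.

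All levels below are in CPM, the count of a gene relative to the library's assigned counts after edgeR's TMM scaling (trimmed mean of M values). The 10 genes together took between 1.28% and 2.10% of the assigned counts of a tumor. For levels between genes, CPM was divided by the length of the principal transcript. On that scale (CPM per kb, mean of 10 tumors) the order was Cd74 (3684), H2-Aa (2624), H2-Ab1 (2253), H2-Eb1 (1479) and Ctss (1065), followed at a distance by H2-DMb1 (207) and H2-DMa (203). H2-DMb2 (36.3), Ciita (28.5) and H2-Oa (7.48) came last. Each gene was above the next in 10 of 10 tumors for 7 of the 9 neighbouring pairs. H2-DMb1 was above H2-DMa in 6 of 10 tumors and H2-DMb2 above Ciita in 8 of 10, so the order within those pairs was not larger than their spread. In rank among all genes tested, Cd74 stood above 99.98% of them by mean log2 CPM and H2-Oa above 31.9%.

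**Figure D1:**
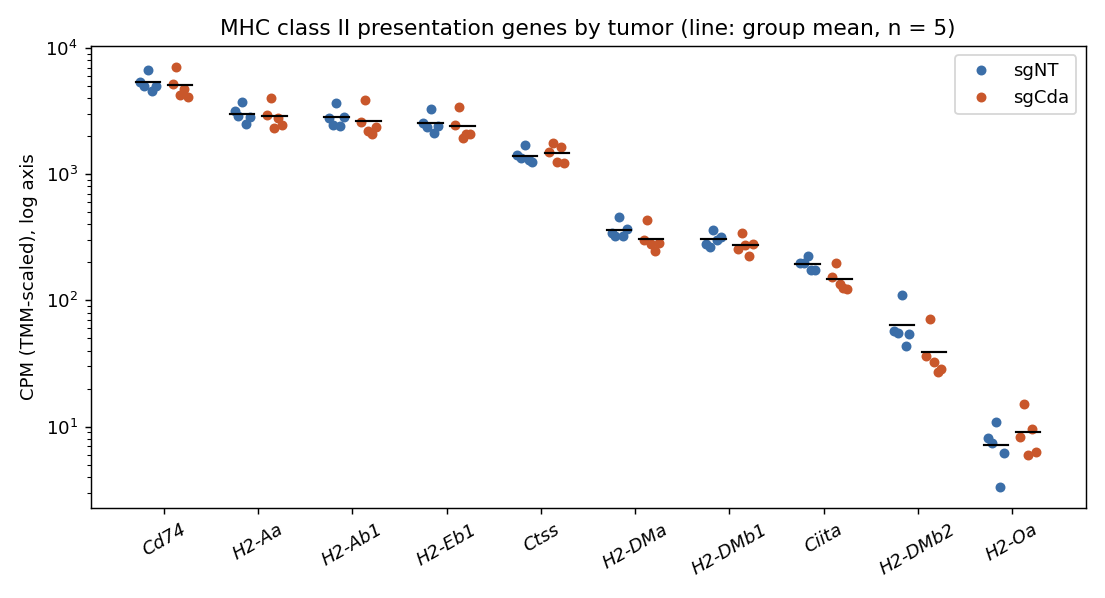
Level of each gene in each tumor, as TMM-scaled CPM on a log axis, with sgNT tumors in blue and sgCda tumors in orange and a line at each group mean (n = 5). For every gene the groups overlap, and 1 tumor in each group sits above the rest of its group for most genes.

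No gene of the 10 differed between sgCda and sgNT tumors at an adjusted p under 0.05, and neither did any other gene (0 of 15299, 0%; smallest adjusted p 0.9996, edgeR's quasi-likelihood test with Benjamini-Hochberg adjustment). Without adjustment, 2 of the 10 (20%) had a p under 0.05, Ciita and H2-DMb2, both lower in sgCda tumors, against 382 of all genes tested (2.50%). Of all genes tested, 0.954% had such a p with a lower level in sgCda tumors and 1.54% with a higher level, where the 10 genes had 2 and 0. Of the 10 genes, 8 (80.0%) had a negative log2 fold change, compared with 47.1% of all genes. Their median log2 fold change was -0.10, beside 0.0078 over all genes. No gene of the 10 had groups that did not overlap, and 0.601% of all genes tested did. The 10 genes vary together across tumors, so these counts are not 10 separate observations. The genes were also chosen with earlier results of these data known, so the counts beside all genes tested are a description.

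**Figure D2:**
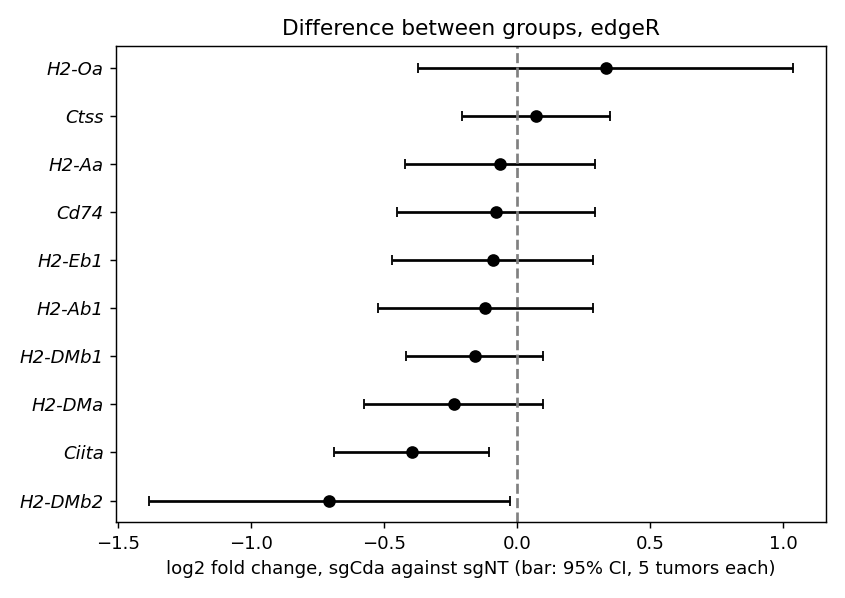
Log2 fold change of each gene, sgCda against sgNT, from edgeR, with bars for the 95% confidence interval (5 tumors per group). The intervals of Ciita and H2-DMb2 lie below 0 and the other 8 include it.

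The class II chains were close to level between the groups. H2-Ab1, the β chain of the I-A molecule, had 2799, 2465, 3698, 2422 and 2828 CPM in sgNT tumors (replicates 1 to 5) and 2598, 3856, 2209, 2080 and 2350 CPM in sgCda tumors. One tumor in each group, sgNT replicate 3 and sgCda replicate 2, was high, and the other 8 lay between 2080 and 2828 CPM. The group means were 2842 ± 513 and 2619 ± 718 CPM (SD, n = 5 each), a log2 fold change of -0.12 with a 95% confidence interval of -0.52 to 0.28. It ran from -0.30 without sgCda replicate 2 to -0.0057 without sgNT replicate 3. H2-Aa, the α chain that pairs with it, had 3180, 2877, 3744, 2500 and 2824 CPM in sgNT tumors and 2921, 4002, 2324, 2768 and 2463 CPM in sgCda tumors. The same pair of tumors was highest, and the log2 fold change was -0.063 (interval -0.42 to 0.29). H2-Eb1, the β chain of the I-E molecule, ran from 2119 to 3289 CPM in sgNT tumors and from 1950 to 3403 CPM in sgCda tumors, with a log2 fold change of -0.091 (interval -0.47 to 0.29). Leaving out sgNT replicate 3 turned the sign of H2-Aa (0.025), H2-Eb1 (0.018) and Cd74 (0.013), and leaving out sgCda replicate 3 turned that of H2-Aa (0.0061). For H2-Ab1 the interval spans a change from -30.3% to 21.8% in sgCda relative to sgNT tumors. Fewer cells that express a gene and less RNA per cell cannot be told apart in whole tumors.

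Of the other class II chains, H2-Eb2, a second β chain gene of the I-E region, had 20.97, 22.1, 27.3, 14.2 and 19.3 CPM in sgNT tumors. In sgCda tumors it had 10.6, 18.1, 10.2, 5.28 and 10.51 CPM. All 5 sgCda tumors lay below the sgNT mean, but sgCda replicate 2 was above sgNT replicate 4, so the groups overlapped. The log2 fold change was -0.92 ± 0.27 (SE), with an interval of -1.52 to -0.32, an unadjusted p of 0.00623 and an adjusted p of 0.9996 (edgeR). H2-Ob, the β chain of H2-O, averaged 11.6 ± 2.74 CPM in sgNT against 11.8 ± 4.36 CPM in sgCda (SD, n = 5 each; log2 fold change 0.025). H2-Ea, the α chain of I-E, which is known to be inactive in C57BL/6 mice, had between 0 and 2 counts per library and was not tested. In these libraries 3 counts, taken as the lowest level that can be told from 0, equal 0.0760 to 0.107 CPM.

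Cd74, which both blocks the peptide groove and guides class II dimers to endosomes, was the most abundant of the 10 genes. It had 5425, 5041, 6660, 4540 and 5011 CPM in sgNT tumors and 5146, 7084, 4241, 4722 and 4071 CPM in sgCda tumors. Means were 5336 ± 804 and 5053 ± 1211 CPM (SD, n = 5 each), with a log2 fold change of -0.079 (interval -0.45 to 0.29). Within a tumor, Cd74 counts stood at 1.88 times those of H2-Ab1 in sgNT and 1.94 times in sgCda tumors (geometric means), a log2 difference of 0.042 (p = 0.619, two-sided exact permutation test of the group labels). Ctss, which cleaves the invariant chain, had 1427, 1338, 1717, 1301 and 1254 CPM in sgNT tumors and 1498, 1759, 1256, 1651 and 1235 CPM in sgCda tumors. It showed the smallest spread of the 10 genes (SD of log2 CPM 0.197 over 10 tumors) and a log2 fold change of 0.072 (interval -0.21 to 0.35). The ratio of Ctss to H2-Ab1 was highest in sgCda replicate 4 (log2 -0.33, against -1.17 to -0.80 in the other 9 tumors).

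The H2-DM genes had lower means in sgCda tumors, with overlapping groups. H2-DMa, the α chain of the peptide exchange factor, had 341.7, 322.3, 462.4, 325.7 and 370.6 CPM in sgNT tumors and 299.2, 433.8, 278.0, 247.9 and 286.9 CPM in sgCda tumors. Except in sgCda replicate 2, each sgCda value was below each sgNT value. The log2 fold change was -0.24 (interval -0.57 to 0.099, unadjusted p = 0.149, adjusted p = 0.9996, edgeR). With a tumor left out it ran from -0.39 (without sgCda replicate 2, unadjusted p = 0.00678) to -0.14 (without sgNT replicate 3, unadjusted p = 0.367, both edgeR). H2-DMb1, 1 of the 2 β chain genes, ran from 265.4 to 362.9 CPM in sgNT tumors and from 223.1 to 342.1 CPM in sgCda tumors (log2 fold change -0.16, interval -0.42 to 0.10). It was -0.25 without sgCda replicate 2 (unadjusted p = 0.0398, edgeR) and -0.091 without either sgNT replicate 3 or sgCda replicate 4 (unadjusted p = 0.451 and 0.418, edgeR).

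H2-DMb2, the other β chain gene, had 56.9, 55.1, 109.5, 43.9 and 54.6 CPM in sgNT tumors and 36.6, 71.6, 32.6, 27.1 and 28.4 CPM in sgCda tumors. The high tumors were again sgNT replicate 3 and sgCda replicate 2, and the remaining sgCda tumors lay below all sgNT tumors. Means were 64.0 ± 25.9 and 39.2 ± 18.5 CPM (SD, n = 5 each). The log2 fold change was -0.70 ± 0.31 (SE), with an interval of -1.38 to -0.025, an unadjusted p of 0.0433 and an adjusted p of 0.9996 (edgeR). Single tumors decided its size: it was -0.42 without sgNT replicate 3 (unadjusted p = 0.141) and -1.04 without sgCda replicate 2 (unadjusted p = 0.00174), both by edgeR. The 2 β chain genes are near copies. Of the 50-base windows of H2-DMb2 transcripts, 32.8% occur in another gene, mostly in H2-DMb1, and 27.2% of the H2-DMb1 windows occur in H2-DMb2. Reads from the shared windows align to more than 1 place, so part of either gene's signal was uncounted. The counts of H2-DMb2 stood at 0.199 times those of H2-DMb1 in sgNT and 0.135 times in sgCda tumors, a log2 difference of -0.57 (a ratio added after the data had been seen and not tested). Counts of H2-DMa against the sum of both β chain genes did not separate the groups (log2 difference -0.0065, p = 0.881, exact permutation test).

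H2-Oa, the α chain of H2-O, was the least abundant, with 8.09, 7.49, 10.9, 3.33 and 6.18 CPM in sgNT tumors and 8.34, 15.1, 5.99, 9.60 and 6.33 CPM in sgCda tumors. Its lowest tumor was sgNT replicate 4 and its highest was sgCda replicate 2. The log2 fold change was 0.33 (interval -0.37 to 1.04), and it was 0.072 without sgCda replicate 2, 0.15 without sgNT replicate 4 and 0.53 without sgNT replicate 3. Relative to H2-DMa, the molecule it restrains, H2-Oa was above the sgNT mean in 5 of 5 sgCda tumors. That mean (log2 ratio -5.747) was lowered by sgNT replicate 4 (-6.605), and sgNT replicates 1, 2 and 3 were above it too. Those sgNT tumors (-5.425 to -5.397) also lay above sgCda replicates 3 and 5 (-5.534 and -5.499). The log2 difference of the ratio of H2-Oa to H2-DMa was 0.60 (p = 0.0794, exact permutation test; 0.397 after adjustment over 10 ratios). It was 0.39 without sgNT replicate 4 and 0.26 with group medians. Of the H2-Oa transcript windows, 21.7% also occur in the overlapping gene BC051537 on the opposite strand, and whether the counting used strand is not given in the sources used here. H2-DMa and Ciita likewise share exon bases with genes on the opposite strand, Brd2 (360 bases) and Dexi (329 bases).

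Ciita, the master coactivator of class II genes, had 197.8, 199.2, 226.4, 175.0 and 173.8 CPM in sgNT tumors. In sgCda tumors it had 152.9, 199.4, 135.9, 126.3 and 124.3 CPM. Of the 5 sgCda tumors, 4 lay below every sgNT tumor, and sgCda replicate 2 was above 4 of the 5 sgNT tumors. The means were 194.4 ± 21.6 and 147.8 ± 31.0 CPM (SD, n = 5 each), a difference of -24.0% on the fitted scale. The log2 fold change was -0.40 ± 0.13 (SE), with an interval of -0.69 to -0.11, an unadjusted p of 0.0120 and an adjusted p of 0.9996 (edgeR). The unadjusted p stayed under 0.05 in 18 of 18 alternative fits, and over the 10 fits that left out a tumor the log2 fold change ran from -0.53 to -0.34. The adjusted p was at least 0.8185 in every one of the 18 fits, so the difference did not pass the test across genes in any of them. The tumor with the highest share of reads outside genes and of mitochondrial counts, sgCda replicate 4 (18.4% and 5.82%, against at most 14.9% and 3.81% in the other tumors), was among the low ones. Without it the log2 fold change of Ciita was -0.34 (unadjusted p = 0.0299, edgeR).

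Ciita was then read relative to H2-Ab1, a known target, in the same tumor. The log2 ratio of Ciita to H2-Ab1 counts was -3.82, -3.63, -4.03, -3.79 and -4.02 in sgNT tumors and -4.09, -4.27, -4.02, -4.04 and -4.24 in sgCda tumors. The 5 sgCda values lay below the sgNT mean, and 2 sgNT tumors (replicates 3 and 5) were within their range. The difference was -0.27 (p = 0.0238, two-sided exact permutation test, whose smallest possible p is 0.00794), with an adjusted p of 0.238 over 10 ratios. The ratios of H2-Aa, H2-Eb1 and Cd74 to H2-Ab1 differed by 0.032 to 0.061 on the log2 scale (p from 0.476 to 0.619, exact permutation tests).

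**Figure D3:**
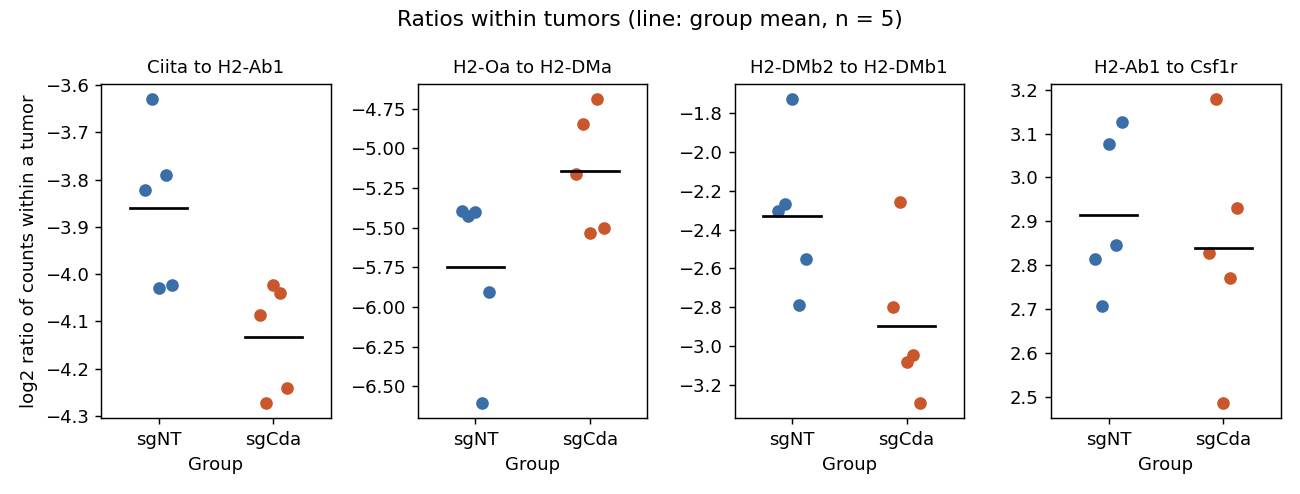
Log2 ratio of the counts of 2 genes within each tumor, for Ciita to H2-Ab1, H2-Oa to H2-DMa, H2-DMb2 to H2-DMb1 and H2-Ab1 to Csf1r, with a line at each group mean (n = 5). The panels have their own axes, and groups overlap in all 4.

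The promoter factors that recruit CIITA were close to level between the groups. None of the 7 genes (Rfx5, Rfxank, Rfxap, Nfya, Nfyb, Nfyc, Creb1) had an unadjusted p under 0.05, and their log2 fold changes lay between -0.037 and 0.030. Rfx5, the DNA-binding subunit of RFX, averaged 19.2 ± 1.73 CPM in sgNT against 19.3 ± 4.61 CPM in sgCda (SD, n = 5 each). Of the 10 genes of antigen processing and class II trafficking none passed either, with log2 fold changes from -0.059 to 0.21 and a median of 0.014. Their smallest p in each direction belonged to Cd83, which protects surface class II from degradation (0.21, unadjusted p = 0.372, edgeR), and to the protease Sppl2a, which clears the last CD74 fragment (-0.053, unadjusted p = 0.429, edgeR).

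None of the 12 genes of the IFNγ pathway had an unadjusted p under 0.05, and their median log2 fold change was -0.073. The log2 fold change was negative for 9 of them and positive for 3, beside 47.1% negative among all genes tested. Ifng, which encodes the cytokine, had 8.70 ± 3.08 and 9.82 ± 4.27 CPM (log2 fold change 0.18), and the IFNγ receptor gene Ifngr1 had the smallest p in the positive direction (0.096, unadjusted p = 0.389, edgeR). None of the 8 genes of costimulation and antigen response passed, with a median of 0.10, and 7 were positive and 1 negative. The smallest p values among them were those of Cd80 (0.18, unadjusted p = 0.266, edgeR), a ligand of CD28, and, in the negative direction, Cd40 (-0.0089). Lag3, a T cell receptor for class II molecules, averaged 30.1 ± 8.43 CPM in sgNT against 30.7 ± 18.0 CPM in sgCda. None of the 7 MHC class I genes passed, with a median of -0.096, and 2 were positive and 5 negative. The peptide transporter gene Tap1 had the smallest p (-0.13, unadjusted p = 0.222, edgeR), and Nlrc5, the class I counterpart of Ciita, had a log2 fold change of 0.037, with B2m at 0.034 (unadjusted p = 0.791, edgeR).

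Tumors within each group also differed from one another. By the median rank of the 10 genes, sgCda replicate 2 came first and sgNT replicate 3 second, with median log2 deviations from the gene means of 0.46 and 0.44. At the low end stood sgCda replicates 3, 4 and 5 (-0.29, -0.29 and -0.23). The highest value was in sgCda replicate 2 for 6 genes (H2-Aa, H2-Ab1, H2-Eb1, Cd74, H2-Oa, Ctss) and in sgNT replicate 3 for the other 4. The SD relative to the mean was larger in sgCda than in sgNT tumors for all 10 genes. How often this held among all genes tested was not computed, so it is not shown to be a trait of these genes. Outside the set, the sgCda group also had the larger SD for Ptprc (leukocytes) and Cd8a (T cells), and the smaller SD for Cxcl9 (IFNγ pathway). The 10 genes of class II presentation also vary together, so their count does not stand for separate observations. In sgCda replicate 4 the genes parted: H2-Ab1, H2-DMa, H2-DMb1 and H2-DMb2 were at their lowest there, whereas H2-Oa and Ctss ranked 3 of 10.

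**Figure D4:**
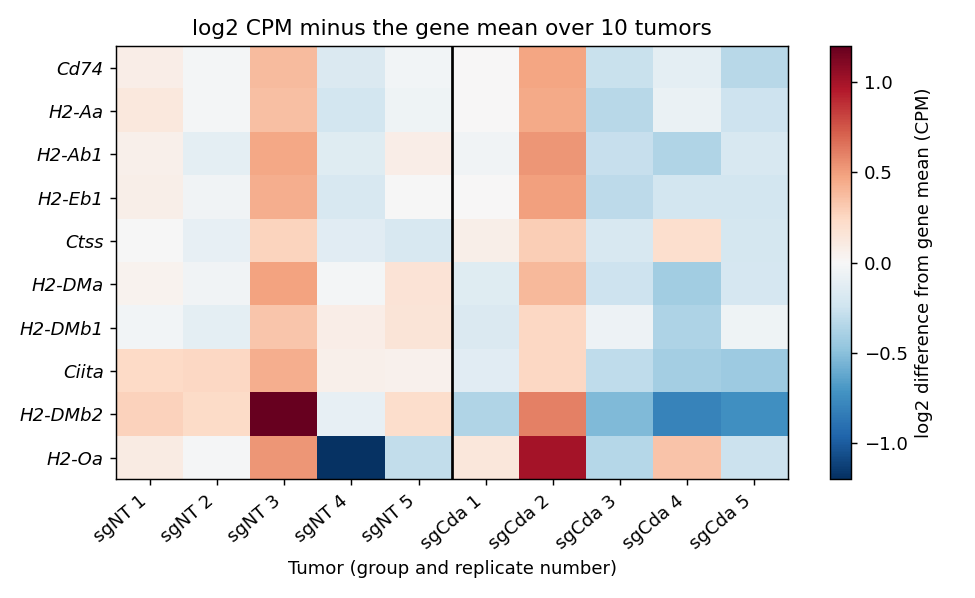
Log2 CPM of each gene minus its mean over the 10 tumors, by tumor, with sgNT tumors left and sgCda tumors right of the black line (red, above the mean; blue, below). Both sgNT 3 and sgCda 2 are red for all 10 genes, and sgCda 3 and sgCda 5 are blue for all 10.

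Across the 10 tumors, H2-Ab1 was compared with 17 genes on the log2 CPM scale, with p values from 100000 permutations adjusted over the 17. Both groups are pooled in these values, and genes read in the same library share its depth and composition. H2-Ab1 went with H2-Eb1 (r = 0.972, rho = 0.927, adjusted p = 0.00034 for r), H2-DMa (r = 0.960, rho = 0.939, adjusted p = 0.00034), Cd74 (r = 0.924, rho = 0.842), H2-Aa (r = 0.906, rho = 0.855), H2-DMb2 (r = 0.889, rho = 0.891), H2-DMb1 (r = 0.845, rho = 0.758) and Ciita (r = 0.781, rho = 0.794). For these 7 genes the permutation p of r was between 4e-05 and 0.00704, with adjusted values up to 0.0171. H2-Oa (r = 0.603, rho = 0.479, permutation adjusted p = 0.127) and Ctss (r = 0.590, rho = 0.442, permutation adjusted p = 0.128) did not pass.

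The same values were computed without the 2 high tumors, sgNT replicate 3 and sgCda replicate 2, which narrows the range and lowers n. Of the 7 genes, r remained past the threshold for H2-DMa alone (r = 0.911, exact permutation p = 0.00196, adjusted p = 0.0333, n = 8). It stayed positive in the other 6, at 0.867 for H2-Eb1, 0.811 for H2-DMb2, 0.724 for Ciita, 0.668 for Cd74, 0.640 for H2-DMb1 and 0.627 for H2-Aa, with adjusted p from 0.0508 to 0.237 (exact permutation, n = 8). H2-Oa and Ctss turned negative (r = -0.039 and -0.24).

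Markers of the cells that carry class II molecules were read beside these levels. Csf1r, the receptor that marks macrophages, went with H2-Ab1 over 10 tumors (r = 0.708, rho = 0.661, permutation p = 0.0217, adjusted p = 0.0462 for r and 0.0945 for rho) but did not pass in the 8 tumors without the high pair (r = 0.308, exact permutation p = 0.442). With H2-Ab1, r was 0.209 for Ptprc (CD45, all leukocytes; rho = 0.249, permutation p = 0.558), 0.181 for Itgax (CD11c; rho = 0.273, permutation p = 0.607) and 0.457 for Flt3 (dendritic cells; rho = 0.358, permutation p = 0.173). It was 0.347 for Ms4a1 (B cells; rho = 0.430, permutation p = 0.326), 0.300 for Cd8a (rho = 0.345, permutation p = 0.401), 0.103 for Ifng (rho = -0.055, permutation p = 0.778) and 0.308 for Cxcl9 (rho = 0.042, permutation p = 0.393). None of these 7 passed after adjustment.

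**Figure D5:**
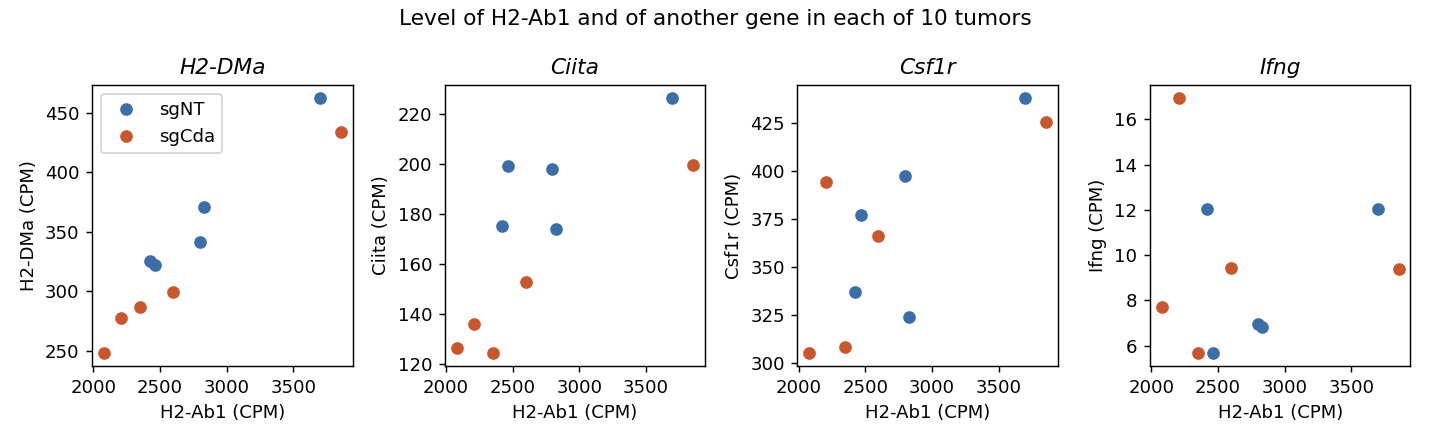
H2-Ab1 against H2-DMa, Ciita, Csf1r and Ifng, each point 1 of 10 tumors in TMM-scaled CPM (linear axes), sgNT in blue and sgCda in orange. H2-DMa rises with H2-Ab1 also among the 8 tumors left of the high pair, and Ifng shows no such order.

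The 7 macrophage markers summed to between 4318 and 6721 CPM in sgNT tumors and between 3987 and 7256 CPM in sgCda tumors, with the highest sums in sgCda replicate 2 and sgNT replicate 3. All 7 were detected and none had an unadjusted p under 0.05. The 8 dendritic cell markers summed to 156.9 to 240.6 CPM in the sgNT group and 141.0 to 314.8 CPM in the sgCda group, again with none under 0.05, and sgCda replicates 2 and 4 were highest. The 5 B cell markers summed to 4.36 to 5.97 CPM in the sgNT group and 5.11 to 7.44 CPM in the sgCda group. Pax5, a factor of B cell identity, had 1 to 35 counts per library and was not tested. Of the B cell list, Cd79a alone had an unadjusted p under 0.05, higher in sgCda tumors (log2 fold change 0.51, unadjusted p = 0.0475, adjusted p = 0.9996, edgeR). The 5 T cell markers summed to 191.6 to 318.2 and 136.6 to 462.6 CPM and none was under 0.05. The log2 fold change was positive for 7 of the 8 dendritic cell markers (median 0.17) and all 5 T cell markers (median 0.11). Of the 7 macrophage markers it was positive for 3 and negative for 4 (median -0.011). It was negative for 47.1% of all genes tested. Relative to Ptprc, Csf1r and Itgax, the log2 level of H2-Ab1 differed between groups by -0.13, -0.076 and -0.23 (p = 0.675, 0.603 and 0.429, exact permutation tests). The part of these cells in the levels of the 10 genes was not tested.

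Other tissue also differed between tumors. The 5 skeletal muscle markers summed to 1782 CPM in sgCda replicate 3 and to between 1.14 and 439.9 CPM in the other 9 tumors. The class II genes were low in sgCda replicate 3 and also in sgCda replicate 5, which had the lowest sum (1.14 CPM). In the tumors with high class II genes, sgNT replicate 3 and sgCda replicate 2, the sums were 299.4 and 253.1 CPM. The sums of the 3 plasma cell markers were 149.7 to 290.0 CPM, and 4 of 5 keratinocyte markers were too low to test. The keratinocyte markers summed to 24.1 CPM in sgNT replicate 4, the tumor with the lowest H2-Oa level, and to 3.50 to 5.67 CPM in the other 9 tumors. Whether muscle or keratinocyte content went with the levels of the 10 genes of class II presentation was not tested. For the cancer cells, Krt8 and Krt18 were present in every tumor (Krt8 352.6 to 644.6 CPM), whereas Epcam, a defining epithelial gene, was near absent (0.911 to 3.43 CPM). Epcam had an unadjusted p under 0.05 in the higher direction (log2 fold change 0.78, unadjusted p = 0.0305, adjusted p = 0.9996, edgeR). Its level was 3.43 CPM in sgCda replicate 2, against 1.01 to 1.71 CPM in the other sgCda tumors and 0.911 to 1.25 CPM in sgNT tumors. Epcam alone of the 5 epithelial markers had such a p, and 2 of the 5 log2 fold changes were positive and 3 negative. They were 0.26 for Krt19, -0.016 for Krt18, -0.076 for Krt8 and -0.18 for Cdh1. Cda, the targeted gene, averaged 12.1 ± 1.76 CPM in sgNT against 9.77 ± 2.34 CPM in sgCda (SD, n = 5 each; log2 fold change -0.30, unadjusted p = 0.0963, edgeR), so the groups overlapped and the counts did not separate the labels. Without sgCda replicate 3, the log2 fold change of Ciita was -0.37 (unadjusted p = 0.0265, edgeR) and that of H2-DMb2 was -0.64 (unadjusted p = 0.0824, edgeR).

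Among genes outside all lists with a mean log2 CPM of at least 2, the 10 whose pattern over the 10 tumors was most like that of H2-Ab1 were Scarb2, Itm2b, Arrdc4, Aldh3b1, Pygo2, Gpr35, Ass1, Mppe1, Isoc2b and Mpeg1. Their Pearson r with H2-Ab1 ran from 0.944 for Scarb2, a lysosomal membrane protein, to 0.908 for Mpeg1, a macrophage perforin, which is given as a description. Scarb2 ranged from 58.4 to 80.3 CPM and Mpeg1 from 946 to 1478 CPM over the 10 tumors, and their log2 fold changes were -0.11 and -0.034. Of the 10 genes of class II presentation, H2-Eb1 and H2-DMa followed H2-Ab1 more closely than Scarb2 did. Cd74 (r = 0.924) lay between Scarb2 and Mpeg1. H2-Aa (r = 0.906), H2-DMb2, H2-DMb1, Ciita, H2-Oa and Ctss followed H2-Ab1 less closely than Mpeg1 did. Scarb2, Mpeg1 and the others of their list were picked for their high r.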

How the data were processed

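RNA was extracted by the authors from whole tumors with TRIzol, and polyadenylated fragments were made into stranded libraries, of which 50 bases were read from 1 end. Reads were mapped to GRCm38/mm10 with TopHat and Bowtie and assigned to Ensembl genes with HTSeq (version 07.2 per the submitters' processing notes). The annotation release and the strand setting are not given in the sources used here. The authors deposited raw gene counts, 1 column per tumor, with 37417 genes and 5 summary lines, which were left out (reads outside genes, 10.3 to 18.4%). HTSeq leaves out reads that align to several places or overlap several genes, which lowers the counts of near copies.

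The titles of the samples gave both group and replicate number. Assigned counts ran from 28051907 to 39484964 per tumor. Whether tumors of a group differ in more than the mouse is not stated, so p values measure the spread between these tumors. Genes were filtered with filterByExpr (minimum count 10, minimum total 15), which left 15299, scaled with TMM factors and tested with edgeR's quasi-likelihood test (edgeR 4.0.16, R 4.3.3), with no covariate and Benjamini-Hochberg adjustment over all genes tested. Correlations used log2 CPM with a prior count of 2. Ratios used counts plus 0.5 and a two-sided exact permutation test. Alternatives were DESeq2 size factors and its Wald test (DESeq2 1.42.0), library totals, 2 other count filters, limma-voom with and without sample quality weights (limma 3.58.1), a replicate block and leaving out each tumor. For ratios, no prior count, medians and the block were tried. For correlations, library totals, removal of group means and leaving out the 2 tumors farthest from the median were tried. The scripts were tested on simulated data.

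Symbols were matched for 32608 identifiers. Gene positions and transcripts came from GENCODE (GRCm38) and promoters from RefSeq (GRCm38.p6). The genes, the marker and pathway lists and the tests were chosen with earlier results of these data known. Named by rule were the 10 genes, the targeted gene, further genes of interest (H2-Ob, H2-Eb2, H2-Ea, Rfx5, Ifng, Nlrc5, Lag3), the smallest p in each direction of each pathway list, and the 10 genes most correlated with H2-Ab1. Some genes that the lists or this rule include are not reported here.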

Additional observations from a re-analysis of the deposited data

Results flagged for a closer look

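In sgNT tumors, H2-DMb2 in replicate 3 stood apart from its group, with 6.78 on the log2 CPM scale against 5.46 to 5.83 in the other 4 tumors. The gap to its nearest neighbour was 0.717 of the group's range, above Dixon's 95% critical value of 0.71. The same tumor was the highest or second highest of the 10 tumors for all 10 genes. A total of 40 groups of 5 values were examined, among which about 2 would pass this limit at a rate of 1 in 20.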

How the results depend on the processing

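No gene passed an adjusted p of 0.05 in any of the 18 alternative fits. The number with an unadjusted p under 0.05 was 830 with a filter of 1 count in any tumor (more genes tested), 719 with sample quality weights, and 280 to 747 when a tumor was left out (747 without sgCda replicate 3). Among the 10 genes it was 1 to 4 when a tumor was left out and 2 in the other 8 fits. Of 180 fold changes of the 10 genes, 176 kept sign and side of the adjusted threshold and 4 reversed. With a tumor left out, H2-Aa ran from -0.21 to 0.025 (0.0061 without sgCda replicate 3), H2-Eb1 from -0.25 to 0.018, Cd74 from -0.23 to 0.013, H2-Ab1 from -0.30 to -0.0057 and H2-DMa from -0.39 to -0.14, the lowest without sgCda replicate 2 and the highest without sgNT replicate 3. Ctss likewise ran from 0.0046 to 0.15 and H2-Oa from 0.072 to 0.53.

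Of 130 ratios, 120 kept their direction. With medians, H2-Eb1 to H2-Ab1 was -0.0096 and H2-DMa to its β chains 0.0042. With a tumor left out, the differences ran from -0.0030 to 0.094 (H2-Aa to H2-Ab1), -0.014 to 0.083 (Cd74 to H2-Ab1), -0.031 to 0.023 (H2-DMa to its β chains), -0.24 to 0.065 (H2-Ab1 to Ptprc) and -0.16 to 0.012 (H2-Ab1 to Csf1r). The log2 ratio of Ciita to H2-Ab1 ran from -0.32 to -0.22. Its exact permutation p was 0.0556, 0.0635 and 0.0556 without sgCda replicates 1, 2 and 5, and under 0.05 without any other single tumor.

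For correlations with H2-Ab1, Csf1r gave 0.676 with library totals (permutation adjusted p = 0.0696) and H2-Oa 0.740 with group means removed (0.0297). Without the 2 high tumors, r was 0.627 (H2-Aa), 0.867 (H2-Eb1), 0.668 (Cd74), 0.640 (H2-DMb1), 0.811 (H2-DMb2), 0.724 (Ciita), 0.308 (Csf1r), -0.039 (H2-Oa), -0.24 (Ctss), -0.17 (Ptprc), -0.26 (Itgax), -0.012 (Cd8a), -0.33 (Ifng) and -0.26 (Cxcl9). The cause of these changes was not tested.

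Same-numbered tumors of the 2 groups did not vary together (r of their deviations from -0.43 to 0.34, over 0.1 for 2 of 5 numbers; 2 sgNT and 1 sgCda tumor correlated best with their own number), so the numbers were not taken as pairs. With a replicate block 325 genes had an unadjusted p under 0.05 and 0 an adjusted one, and the log2 fold changes of Ciita and H2-DMb2 were -0.41 and -0.73. The paired difference in the ratio of Ciita to H2-Ab1 was -0.27 (exact sign-flip p = 0.125, smallest possible 0.0625).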
